A study of Ovis aries with 9 samples.

Results

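Sperm small RNA of F1 rams whose mothers had been overfed was compared with that of F1 rams whose mothers had been fed normally, at matched read length. By their titles, 6 of the 9 samples of the series belong to this comparison, 3 in the group CON (mothers on standard feeding) and 3 in the group OVER (over feeding of the mothers). All are wild type by their labels. The material is sperm from semen, treated with an SDS and Triton X buffer that lyses somatic cells, extracted with TRIzol, size-selected as small RNA and sequenced on an Illumina NovaSeq 6000 from NEBNext libraries. The period of feeding is given only by the series title, which speaks of gestation. How many rams stand behind a sample, and whether rams were pooled, is not stated by the labels. The 3 deposited tables of a group were identical in sequences and read counts, so the comparison rests on 2 distinct tables out of 3 in the series, 1 for each group. Each group was counted as 1 library. A pool and a single library cannot be told apart here. No difference given here has a replicate check, the groups could not be tested, and intervals cover only counting error.

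The CON table held 9983895 reads and that of OVER 8287937 reads, between 15 and 42 nt long. Abundance is given as RPM, reads per 1000000 reads of the library. Ratios are OVER over CON, as folds or on the log2 scale with an exact binomial 95% interval of the 2 counts in brackets. A feature is an RNA class or a named RNA at 1 read length, it was compared where the 2 libraries together had at least 100 reads, and a ratio of at least 2-fold is counted as higher or lower. For many features the ratio of the shares of all reads of the same length is given as well, since that ratio leaves out that 1 library has more short reads than the other. In sperm in bulk, fewer cells that hold an RNA and less of that RNA in each cell cannot be told apart.

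Mature sperm carry little cytoplasm, and much of their small RNA consists of pieces of longer, stable RNAs. 5′ fragments of tRNAs end in or near the anticodon loop, where endonucleases such as angiogenin cut, and are abundant in mammalian sperm, where diet studies in rodents have followed them. 7SL is the RNA of the signal recognition particle, which brings ribosomes to the endoplasmic reticulum; U2 and U12 are the small nuclear RNAs that recognise the branch point in the major and the minor spliceosome; Y RNAs bind the Ro60 protein. miRNAs are cut by Dicer to a fixed size and find their targets through the seed, bases 2 to 8.

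The fragments on which the comparison turns are shown as the tables give them, 5′ to 3′, in DNA letters. The first set shows where 5′ fragments of tRNAs ended. Small letters are shared by the forms of 1 tRNA, and capitals mark the added 3′ bases of the longer form.
Glu-TTC, 30 nt: tcccacatggtctagcggttaggattcctg
Glu-TTC, 33 nt: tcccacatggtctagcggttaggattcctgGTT
Gly-GCC, 30 nt: gcattggtggttcagtggtagaattctcgc
Gly-GCC, 31 nt: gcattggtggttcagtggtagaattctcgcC
His-GTG, 30 nt: gccgtgatcgtatagtggttagtactctgc
His-GTG, 32 nt: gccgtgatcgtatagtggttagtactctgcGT
Pro-TGG, 29 nt: ggctcgttggtctaggggtatgattctcg
Pro-TGG, 32 nt: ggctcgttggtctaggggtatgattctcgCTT

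The second set shows the 7SL fragments that lie end to end, the U2 and U12 fragments, chosen by their 3′ end, and both ends of the Y1 RNA. The tables name these RNAs misc RNA, small nuclear RNA and Y RNA, and the names 7SL, U2, U12 and Y1 were given by textbook sequence. Capitals mark the bases that a longer form has in addition.
7SL left, 22 nt: ctggaggatcgcttgagctcag
7SL left, 23 nt: ctggaggatcgcttgagctcagG
7SL right, 21 nt: agttctgggctgcagtgcgct
7SL right, 25 nt: agttctgggctgcagtgcgctATGC
7SL right, 33 nt: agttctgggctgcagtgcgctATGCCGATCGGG
U2, 17 nt: tggatttttggagcagg
U2, 19 nt: AAtggatttttggagcagg
U2, 22 nt: TTAAAtggatttttggagcagg
U12, 20 nt: AGAcgaatttttgagcgggt
Y1 5′, 32 nt: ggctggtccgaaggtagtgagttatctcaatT
Y1 3′, 24 nt: cttctcactactgcacttgactag
Y1 3′, 28 nt: cttctcactactgcacttgactagTCTT

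The third set shows the miRNAs with the largest and the most abundant differences, with the seed in capitals. miR-148a and miR-152 share 1 seed, the miR-30 members another, and let-7f and let-7g another one.
oar-mir-21: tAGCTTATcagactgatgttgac
oar-mir-148a: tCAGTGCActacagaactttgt
oar-mir-152: tCAGTGCAtgacagaacttggt
oar-mir-30b: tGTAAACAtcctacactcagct
oar-mir-30a: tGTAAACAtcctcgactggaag
oar-mir-30d: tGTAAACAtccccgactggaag
oar-let-7f: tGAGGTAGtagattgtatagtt
oar-let-7g: tGAGGTAGtagtttgtacagt
oar-mir-22: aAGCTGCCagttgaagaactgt
oar-mir-127: tCGGATCCgtctgagcttgg
oar-mir-26a, 20 nt: tTCAAGTAatccaggatagg
oar-mir-16b: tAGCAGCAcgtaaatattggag
oar-mir-543: aAACATTCgcggtgcacttct

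The OVER library held shorter reads. Reads of 15 nt were 9.73-fold more abundant in OVER (4023 RPM in CON and 39150 in OVER), reads of 23 nt were also more abundant (59930 and 119830 RPM), and reads of 30 nt were 3.24-fold less abundant (162730 and 50210 RPM). At 40 nt there were 13377 RPM in CON and 105.2 in OVER, 127-fold fewer. The lengths from 36 to 42 nt held 8.55% of the CON reads but 0.423% of the OVER reads. The crossing lay between 24 nt, where OVER was 1.31-fold higher, and 25 nt, where it was 1.11-fold lower. The slope was not even: at 31 nt the difference shrank to 1.38-fold lower, between 3.24-fold at 30 nt and 2.01-fold at 33 nt.

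**Figure D1:**
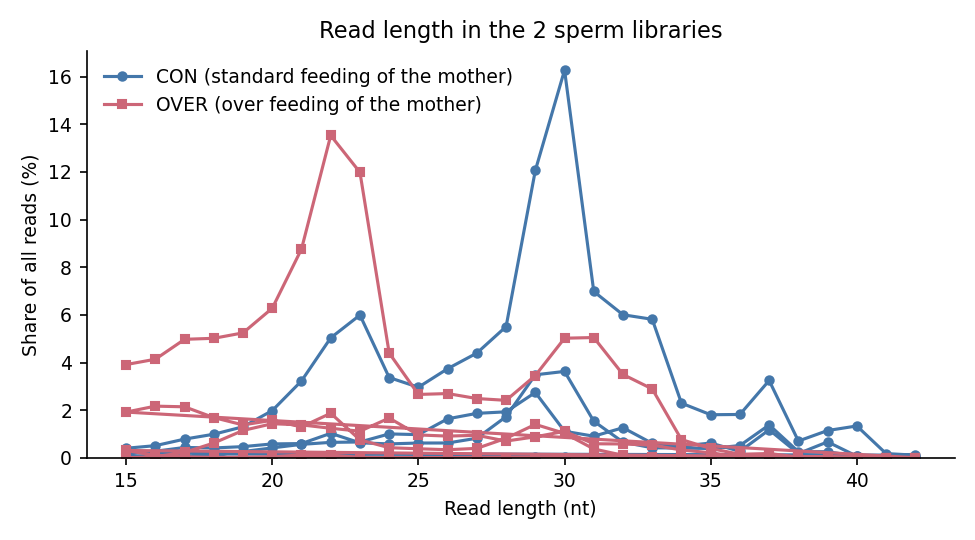
Share of all reads (%) at each read length (nt) in the CON library (blue circles) and the OVER library (red squares), 1 library each. For each library the highest point at a length is that of all reads. The lower points are unannotated reads that match the genome, unannotated reads that do not, and reads with only an antisense annotation. The line of each library runs through these sets in turn. CON is highest at 30 nt (16.3%) and OVER at 22 nt (13.5%), and beyond 36 nt the OVER line lies near 0.

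This gradient ran through every class of RNA. Of 373 pairs of class and length, 104 (27.9%) were 2-fold or more above CON and 185 (49.6%) 2-fold or more below it. At 15 to 20 nt all 84 pairs of the 14 classes were above CON and 82 of them at least 2-fold. At 34 to 42 nt all 107 pairs were at least 2-fold lower. In between, at 21 to 24 nt, 22 of 56 pairs were 2-fold or more above CON and none as far below, and at 29 to 33 nt 58 of 70 were 2-fold or more below CON and none as far above. Taken as shares of the reads of the same length, 33 pairs were above by 2-fold or more and 77 below, against 104 and 185 in RPM.

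misc RNA, the class that holds 7SL, was 9.87-fold higher at 22 nt (3655 and 36065 RPM) and still held 3.67 times its CON share among reads of that length. Small nuclear RNA was 11.5-fold higher at 17 nt, with 989.2 RPM in CON and 11399 in OVER. Nuclear tRNA was 6.82-fold lower at 29 nt (48067 and 7052 RPM) and 4.16-fold lower at 30 nt (106660 and 25624 RPM). At 31 and 32 nt the same class was above CON, with 15486 and 23259 RPM and 6969 and 9380 RPM (1.35-fold). No other class was above CON at any length from 29 to 42 nt. Long non-coding RNA went from 7.82-fold higher at 15 nt (415.2 and 3247 RPM, but a smaller share of the reads of that length, log2 -0.32) to 7.18-fold lower at 31 nt (330.1 and 45.97 RPM). Of the other classes at their peak lengths, mitochondrial tRNA at 27 nt was 1.14-fold lower (1405 and 1236 RPM, but a larger share of the reads of that length, log2 0.64). Small nucleolar RNA, which guides the modification of rRNA, was 2.05-fold lower at 27 nt (278.1 and 135.6 RPM). As a share of the reads of that length it was nearer to CON (log2 -0.21).

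**Figure D2:**
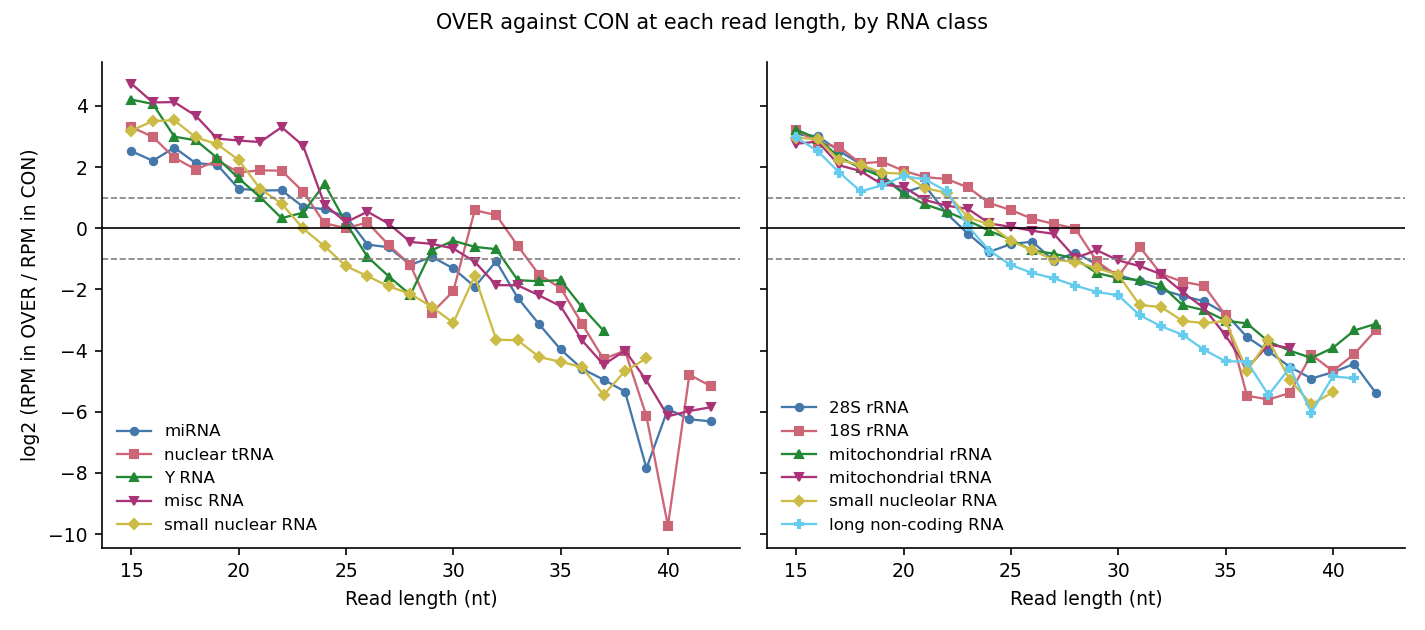
log2 ratio of RPM in OVER over CON at each read length (nt) for 11 of the 14 RNA classes, with lengths under 100 reads left out. The solid line marks equal RPM and the dashed lines 2-fold; every line is above 1 at 15 nt and below -3 at 37 nt, and nuclear tRNA has a trough at 29 nt (-2.77), lies above 0 at 31 nt (0.59) and has the lowest point of all at 40 nt (-9.73).

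Among tRNAs the end of the 5′ fragment lay at a different base in OVER for some tRNAs. Each 5′ fragment was counted as all reads that begin with the same first 18 bases. tRNA-Glu-TTC, which reads GAA codons, differed in where its fragment ended. One of its 5′ fragments had 5841 RPM in CON and 839.1 in OVER at 30 nt (6.96-fold lower), and 1031 and 3610 RPM at 33 nt (higher, log2 1.81 [1.78 to 1.84]). A second gene form of the same tRNA, which differs in its first bases, gave 2991 and 581.1 RPM at 30 nt and 668.7 and 3262 RPM at 33 nt. In both forms the 33 nt length took 11.0% and 12.7% of the fragment in CON and 64.3% and 66.9% in OVER. An inner piece of Glu-TTC of 22 nt, which lies wholly within the 5′ fragment of 33 nt, ends with it and was counted by its first 15 bases, stood at 26.74 RPM in CON and 987.8 in OVER (36.9-fold higher, log2 5.21 [5.03 to 5.39]).

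**Figure D3:**
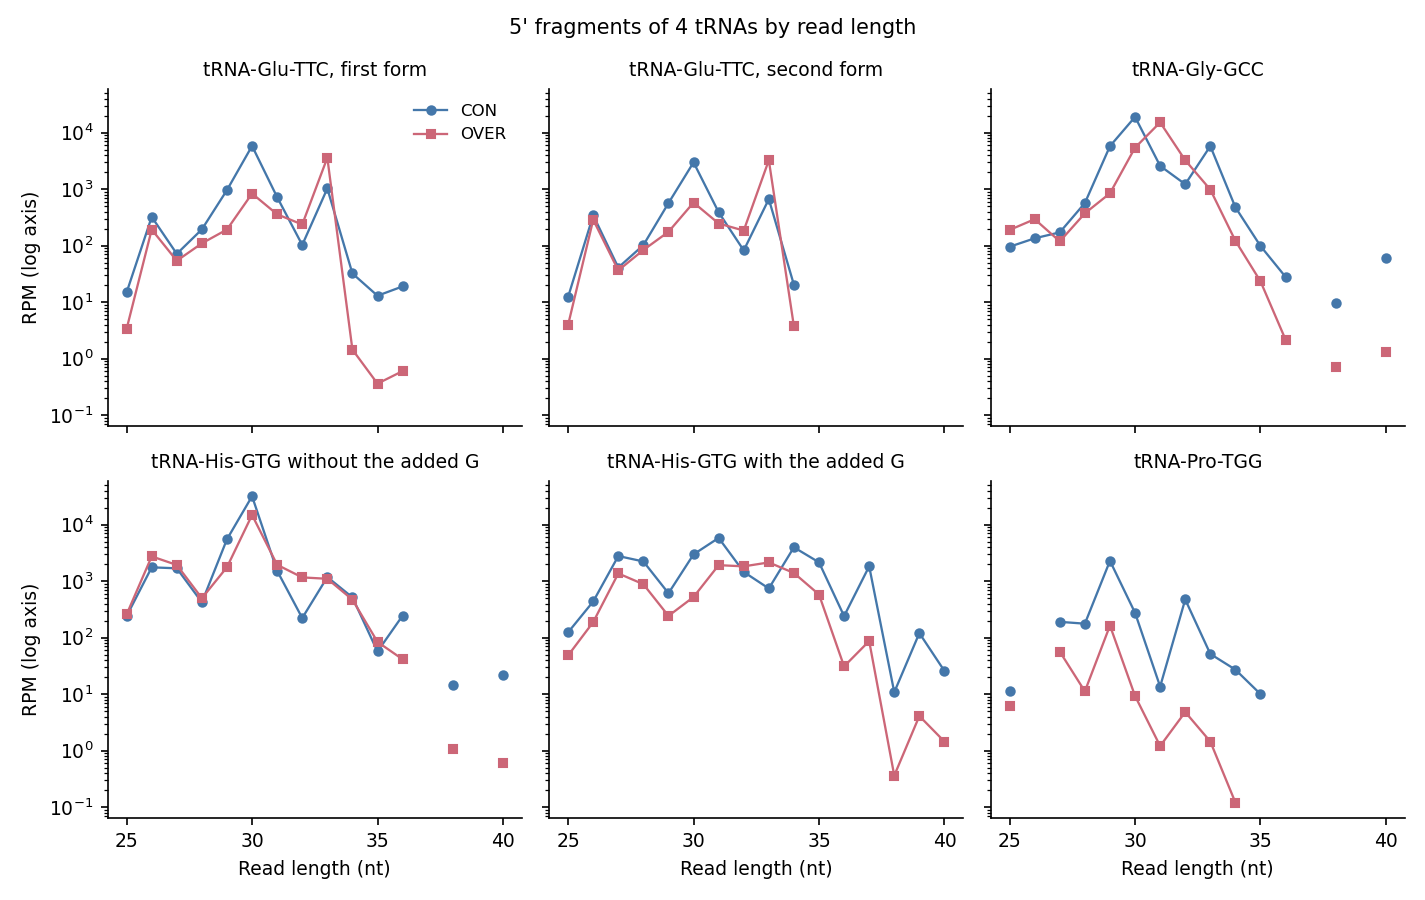
RPM (log axis) of 6 5′ fragments of tRNAs at read lengths of 25 to 40 nt in CON (blue circles) and OVER (red squares), counted by their first 18 bases; lengths under 100 reads in all are left out, and a library with 0 reads at a length has no point. For Pro-TGG the OVER points lie below CON at every length, while for both forms of Glu-TTC, for Gly-GCC and for both forms of His-GTG they cross, and OVER lies above CON at 33 nt for Glu-TTC and at 31 nt for Gly-GCC.

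For tRNA-Gly-GCC, whose sperm fragment has been studied in mice on altered diets, the commonest end moved by 1 base. There were 19057 RPM in CON and 5447 in OVER at 30 nt (lower, log2 -1.81, but near level as a share of the length, -0.11), and 2587 and 15257 RPM at 31 nt (5.90-fold higher, log2 2.56 [2.54 to 2.58]). At 32 nt it was 2.66-fold higher, and at 33 nt 5.89-fold lower (5804 and 985.1 RPM). The 31 nt length took 7.15% of this fragment in CON and 56.6% in OVER. Summed over lengths the fragment was 1.34-fold lower in OVER, the sum of differences of opposite sign.

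tRNA-His-GTG is the only tRNA that receives an extra guanosine at its 5′ end after transcription, and both forms were counted. Without the added base there were 31862 RPM in CON and 14840 in OVER at 30 nt (2.15-fold lower), 222.6 and 1166 RPM at 32 nt (5.24-fold higher), and 1758 and 2746 RPM at 26 nt (1.56-fold higher). With it there were 5827 and 1922 RPM at 31 nt (3.03-fold lower), 742.4 and 2146 RPM at 33 nt (2.89-fold higher) and 1832 and 87.12 RPM at 37 nt (lower, log2 -4.39, and -0.23 as a share of the length). The lengths at least 2-fold higher in OVER, 32 nt without and 33 nt with the added base, end at the same base of the tRNA. At 30 nt the His fragment without the added base held more of the reads of that length in OVER than in CON (log2 0.59), so the direction there depends on the measure.

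Valine and lysine tRNAs had other patterns. The Val-CAC 5′ fragment had 2373 RPM in CON and 5919 in OVER at 23 nt (2.49-fold higher) and 2027 and 839.2 RPM at 29 nt (2.42-fold lower, but a larger share of the reads of that length, log2 0.53). The proline fragment, which the 3 proline tRNAs share, was lower at all 10 lengths compared, with 2289 and 163.6 RPM at 29 nt and 474.0 and 4.83 RPM at 32 nt. Lys-TTT, at its peak length of 33 nt, had 213.8 RPM in CON and 917.4 in OVER, 4.29-fold higher, where tRNA reads of that length as a class were lower. Its sequence in that form was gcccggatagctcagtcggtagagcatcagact, which alone went from 186.3 to 811.5 RPM. Lys-CTT at 33 nt had 215.3 and 451.0 RPM.

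Over all tRNA names and lengths, 349 of 832 pairs (41.9%) were 2-fold or more above CON and 210 (25.2%) 2-fold or more below it. With edgeR's TMM factors computed within tRNAs the split was 273 and 263, with DESeq2 size factors 243 and 312, and per 1000000 reads of the same length 118 and 134. At 15 to 20 nt 267 of 286 pairs were at least 2-fold higher. At 29 to 33 nt 91 of 143 were 2-fold or more below CON and 13 as far above it, and these 13 belong to 8 tRNAs: the 3 glycine tRNAs at 31 and 32 nt, the 2 lysine tRNAs at 32 and 33 nt, Val-TAC at 32 nt, iMet-CAT at 31 nt and Arg-TCG at 33 nt. Those of Arg-TCG, with 3.71 and 10.6 RPM, and of iMet-CAT, with 5.51 and 20.9 RPM, rest on few reads. Reads that could come from several tRNAs count in full for each, so isoacceptors such as the glycine tRNAs are not separate observations.

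Of 111 single nuclear tRNA sequences of at least 100 RPM on average, 23 (20.7%) were 2-fold or more above CON and 61 (55.0%) as far below.

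Each tRNA was also compared at its own peak length. Of 61 tRNAs, 28 (45.9%) were 2-fold or more above CON and 17 (27.9%) 2-fold or more below, with a median log2 ratio of 0.73. Taken as shares of the reads of that length, 7 were higher, 11 lower and 43 within 2-fold, with a median of -0.08. Among the lowest were SeC-TCA, the selenocysteine tRNA (92.25 and 4.83 RPM at 37 nt), mitochondrial Ser-TGA (244.8 and 14.12 RPM at 28 nt), Pro-AGG and Pro-CGG. The SeC-TCA ratio is near that of all reads of 37 nt (log2 -0.09 as a share of the length). The 6 highest were mitochondrial Ala-TGC at 18 nt, Cys-ACA, Met-CAT, Thr-CGT and Arg-TCT at 15 nt, and Thr-TGT at 16 nt. As shares of the reads of their length Arg-TCT, Thr-CGT, Thr-TGT and Met-CAT were within 2-fold of CON (log2 0.20, 0.24, 0.46 and 0.51). Of the highest, mitochondrial Ala-TGC had 1 read in CON and 261 in OVER (log2 8.30 [5.81 to 13.6]), and most of its reads have the sequence gatgtaagatgtagtctt. The Thr-TGT value, 30.55 and 340.1 RPM, includes a 16 nt sequence of the alanine tRNAs that also carries its name, ggggatgtagctcaga, which had 10.3 RPM in CON and 189.2 in OVER.

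Among the most abundant tRNAs in CON were His-GTG, Gly-GCC, Gly-CCC and Gly-TCC, all with their peak at 30 nt and all below CON there, His-GTG by 2.25-fold. As shares of the reads of 30 nt the glycine tRNAs were near level (log2 -0.08 to -0.11) and His-GTG was above CON (0.53). Of the 10 tRNAs whose sperm fragments were reported to move with the father's diet in rodents, 6 were 2-fold or more below CON and 4 as far above it at their peak lengths. The lower ones include the 3 glycine tRNAs and His-GTG, and the higher ones are Val-CAC and Val-AAC at 23 nt and Lys-CTT and Lys-TTT at 33 nt. The median log2 ratio of the 10 was -1.47, against 0.73 for all 61 tRNAs. As shares of the reads of the length the median was 0.12, against -0.08. Across all 61 tRNAs, 27.9% were 2-fold or more below CON and 45.9% as far above it. Some of the 10 share most of their reads, which count in full for each. Another name is on 98.0%, 99.2% and 99.6% of Gly-GCC, Gly-CCC and Gly-TCC reads. For Val-CAC and Val-AAC it is 99.8% and 99.7%. The split of 6 and 4 and the medians thus count some fragments more than once.

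Nuclear tRNA reads with a 5′ end name had 114350 RPM in CON and 14447 in OVER at 29 to 30 nt (7.91-fold lower) and 41760 and 44027 RPM at 31 to 33 nt (1.05-fold higher). At 34 to 42 nt they were 7.57-fold lower. Reads that reach the CCA added to the 3′ end of every tRNA were few, with 293.6 and 40.5 RPM at 31 to 33 nt (7.24-fold lower) and 364.9 and 534.5 RPM at 15 to 24 nt (1.46-fold higher).

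7SL fragments were many times more abundant in OVER at 21 to 23 nt. The left fragment had 1538 RPM in CON and 31852 in OVER at 22 nt (20.7-fold higher, log2 4.37 [4.35 to 4.40]) and 3211 and 29769 RPM at 23 nt (9.27-fold higher). Summed over lengths it stood at 5903 and 65504 RPM. The right fragment begins at the base after the 23 nt form of the left one ends. It had 1301 and 12945 RPM at 21 nt (9.95-fold higher), 3619 and 4054 RPM at 25 nt (1.12-fold higher) and 2055 and 521.1 RPM at 33 nt (3.94-fold lower). Among reads of the same length the left fragment was still 2.95 higher at 22 nt and the right one 1.87 higher at 21 nt on the log2 scale. Reads that span the junction, with 8 bases on each side, were 2.62-fold lower in OVER (1213 and 462.4 RPM). Those that start at it were 2.50-fold higher. Both counts are sums over lengths, not shares of the reads of the same length. OVER held fewer long reads in all, and the part of that in these ratios was not tested. The highest ratio of a single misc RNA sequence of at least 100 RPM on average was that of the first 15 bases of the right fragment, with 13.12 RPM in CON and 918.8 in OVER. Of 90 such sequences, 55 (61.1%) were 2-fold or more above CON and 18 (20%) 2-fold or more below.

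Fragments of the spliceosomal RNAs U2 and U12 were higher in OVER at short lengths. Each set holds the reads with 1 chosen 3′ end, so U12 reads that end 1 base earlier are not in it, such as a 17 nt form with 24.9 RPM in CON and 390.2 in OVER. The U2 set, counted by its last 12 bases, had 549.1 RPM in CON and 7263 in OVER at 17 nt (13.2-fold higher), 1076 and 7476 RPM at 19 nt (6.95-fold higher) and 337.2 and 424.8 RPM at 22 nt (1.26-fold higher). At 22 nt its share of the reads of that length was lower in OVER (log2 -1.09), so the sign there depends on the measure. The U12 set had 141.7 and 1284 RPM at 20 nt (9.06-fold higher) and was above CON at all 9 lengths compared, also as a share of the reads of 20 nt (log2 1.52). In both libraries the U2 set was commonest at 19 nt and the U12 set at 20 nt. Of 28 single small nuclear RNA sequences of at least 100 RPM on average, 23 (82.1%) were 2-fold or more above CON and 1 (3.57%) 2-fold or more below, the latter at 26 nt with 407.3 and 131.5 RPM. All reads of 17 and 19 nt were 6.33-fold and 4.02-fold higher in OVER. At 15 to 20 nt, 82 of 84 pairs of class and length were at least 2-fold higher. The part of read length in the count of single sequences was not tested.

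**Figure D4:**
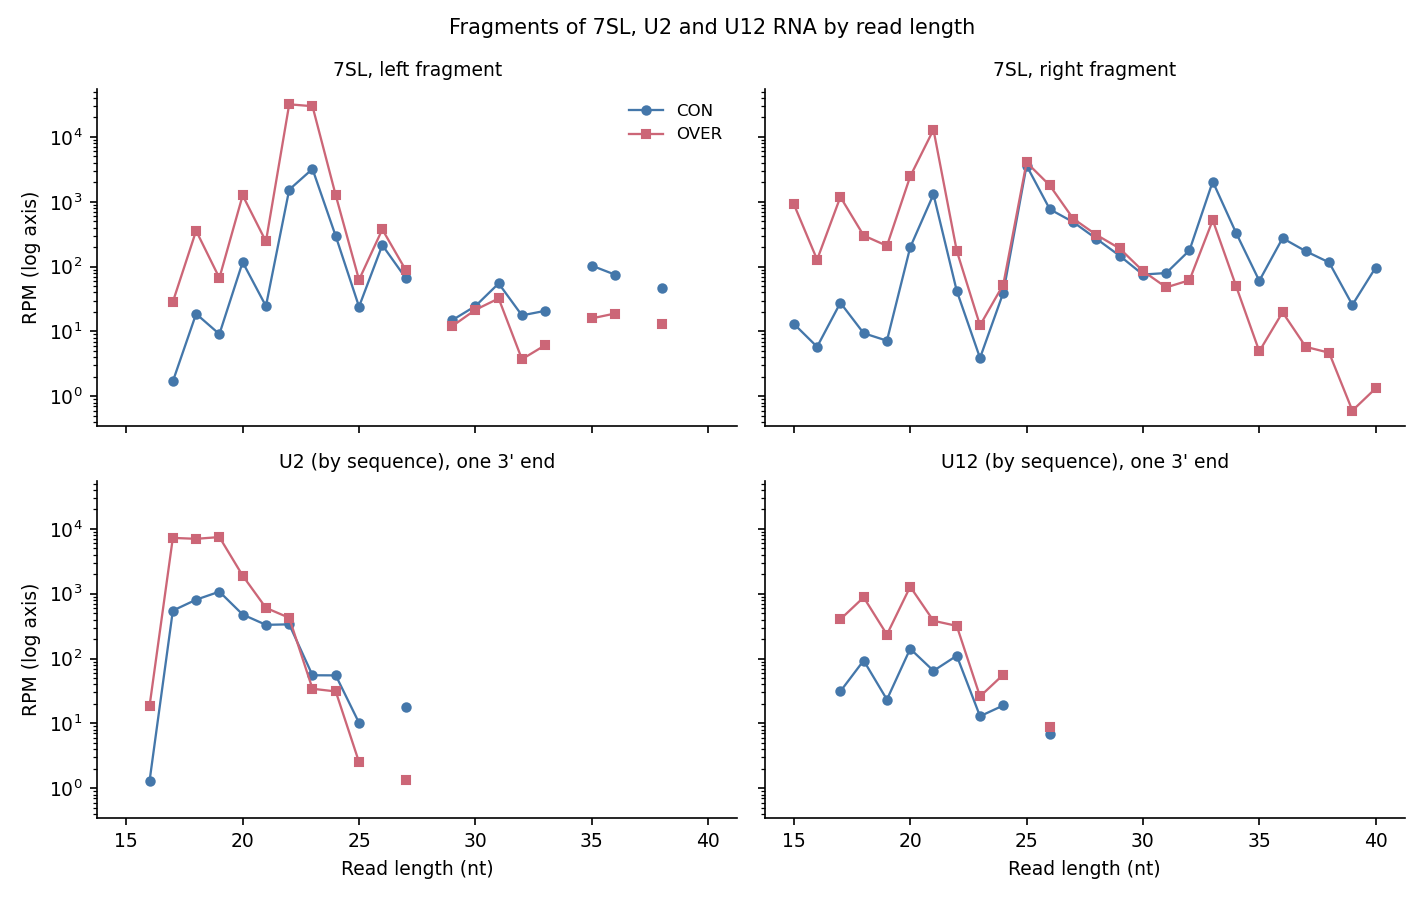
RPM (log axis) by read length (nt) of the left and right 7SL fragments, counted by their first 15 bases, and of the U2 and U12 fragments, counted by their last 12 bases, in CON (blue circles) and OVER (red squares); lengths under 100 reads in all are left out, and a library with 0 reads at a length has no point. The left 7SL fragment peaks at 22 and 23 nt, where OVER lies 20.7-fold and 9.27-fold above CON, while the right fragment peaks at 21 nt, 25 nt and 33 nt and changes sides between them.

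Y RNA was lower in OVER at the lengths of its 5′ fragment. The Y1 5′ fragment had 22985 RPM in CON and 15127 in OVER at 31 nt (1.52-fold lower), 25455 and 15703 RPM at 32 nt (1.62-fold lower) and 16625 and 4934 RPM at 33 nt (3.37-fold lower). As shares of the reads of 31 and 32 nt these were within 0.14 of CON on the log2 scale, and at 33 nt the share was lower (-0.74). The 3′ part of Y1 had another end in OVER: 904.8 and 103.4 RPM at 28 nt (8.75-fold lower), and 235.6 and 713.0 RPM at 24 nt (3.03-fold higher). The 24 nt length was the commonest of that piece in OVER (56.4%), and 28 nt in CON (46.1%). A second Y RNA 5′ fragment, that of Y4 by textbook sequence, was within 2-fold at 31 to 33 nt and held 2175 RPM in CON and 1592 in OVER in all.

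18S rRNA had its peak at 36 nt, at 4159 RPM in CON and 93.39 in OVER (44.5-fold lower), although in sum it was level with CON (20502 and 20605 RPM). Most of that peak is 1 fragment, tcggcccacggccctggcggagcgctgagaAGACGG, shown with the bases beyond its 30 nt form in capitals. It alone went from 3727 to 63.6 RPM, and it was also lower as a share of the reads of 36 nt (log2 -2.26 over all reads with its first 18 bases). 28S rRNA at 21 nt was 2.61-fold higher (1530 and 3989 RPM), with the sequence tgaaaagaactttgaagagAG at 185.9 and 1559 RPM, but the class held about the same share of 21 nt reads in both libraries (log2 -0.06). 5S rRNA at 19 nt was 3.48-fold higher (125.2 and 435.2 RPM), although 5S and 5.8S rRNA together held a smaller share of the reads of that length in OVER (log2 -0.22), and 5.8S rRNA at 15 nt had 30 and 234 reads (log2 3.23). Mitochondrial rRNA at 25 nt was 1.30-fold lower (1351 and 1039 RPM), and reads named only rRNA at 26 nt were 1.64-fold lower. Of 49 single rRNA sequences of at least 100 RPM on average, 17 (34.7%) were 2-fold or more above CON and 23 (46.9%) 2-fold or more below.

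miRNAs were more abundant in OVER at 21 to 23 nt. Of the reads of this class, 94.6% in CON and 95.5% in OVER were 20 to 24 nt long. There were 12992 RPM in CON and 30524 in OVER at 21 nt, 23682 and 56016 at 22 nt (2.37-fold higher, log2 1.24 [1.24 to 1.25]) and 32320 and 52504 at 23 nt (1.62-fold higher). All reads of 22 nt were 2.69-fold higher, so among them miRNAs held a somewhat smaller share in OVER, 41.4% against 47.0%. The commonest length of the class was 23 nt in CON and 22 nt in OVER. Of 129 single miRNA sequences of at least 100 RPM on average, 66 (51.2%) were 2-fold or more above CON and 2 (1.55%) as far below. Reads named misc RNA as well were 4.41% of the class in CON and 2.47% in OVER, and those with no ovine name were 32.6% and 31.8%. The 2 highest ratios among the 129 sequences were of sequences also named misc RNA. They had 33.45 RPM in CON and 722.0 in OVER at 19 nt, and 21.835 and 288.25 RPM at 21 nt.

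Over all miRNA names and lengths, 155 of 261 pairs (59.4%) were 2-fold or more above CON and 3 (1.15%) 2-fold or more below it. TMM factors shift all ratios by -1.25 and DESeq2 size factors, both computed within miRNAs, by -1.33 on the log2 scale, and the splits are then 63 and 38, and 57 and 46. Per 1000000 reads of the same length it was 22 and 45. At their own peak lengths, 42 of 70 miRNAs (60%) were 2-fold or more above CON and 0 (0.0%) 2-fold or more below, with a median log2 ratio of 1.24. As shares of the reads of the length, 5 were higher, 11 lower and 54 within 2-fold, with a median of -0.07.

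**Figure D5:**
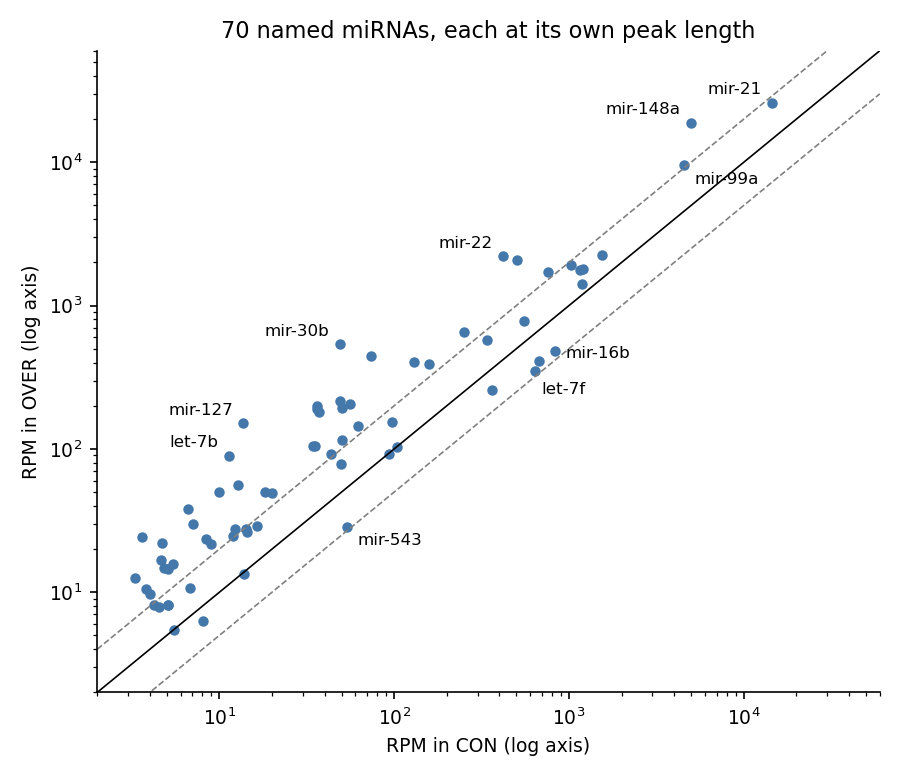
RPM in CON against RPM in OVER (both log axes) for the 70 named miRNAs with at least 100 reads at their peak length, each point 1 miRNA at that length. The solid line marks equal RPM and the dashed lines 2-fold; 61 points lie above the solid line and 9 below it, and miR-543, let-7f and miR-16b lie lowest against it.

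The highest ratios were those of miR-30b and miR-127. oar-mir-30b at 22 nt had 48.88 RPM in CON and 540.9 in OVER (11.1-fold higher, log2 3.47 [3.33 to 3.61]), and was higher at all 4 lengths compared. Its 22 nt sequence shares the seed of oar-mir-30a and oar-mir-30d, the more abundant members, which at 22 nt had 755.0 and 1725 RPM (2.28-fold) and 1029 and 1916 RPM (1.86-fold), but smaller shares of the reads of 22 nt in OVER (log2 -0.23 and -0.53). oar-mir-127, an imprinted miRNA of the DLK1-DIO3 domain, had 13.72 and 150.6 RPM at 20 nt (11.0-fold higher, log2 3.46 [3.20 to 3.72]). Its ratio differed with length: 11.4-fold higher at 19 nt, 3.30-fold at 22 nt (2.70 and 8.93 RPM) and 1.42-fold at 23 nt (6.81 and 9.65 RPM). At 23 nt its share of the reads of that length was lower in OVER (log2 -0.50). Next were oar-let-7b at 16 nt, oar-mir-412, oar-mir-26b at 20 nt, oar-mir-380, oar-mir-152 and oar-mir-22. oar-mir-152, which shares its seed with oar-mir-148a, had 36.06 and 198.1 RPM at 22 nt (5.49-fold higher), and oar-mir-22 had 419.3 and 2216 RPM at 22 nt (5.28-fold higher). oar-mir-380 and oar-mir-412, also of that domain, had 6.61 and 38.2 RPM and 3.61 and 24.1 RPM. TMM and DESeq2 factors shift every miRNA by the same amount, less than any of these ratios. That the 8, picked as the highest, stay above CON with them follows from the selection. As shares of the reads of their length all but let-7b were above CON.

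Of the 8 highest, 2 rest on shared reads. The oar-let-7b value, 11.3 and 89.8 RPM, is one of 16 nt reads, 92.4% of all reads under that name carry another name as well, and as a share of 16 nt reads it was level (log2 -0.03). The oar-mir-26b value, 73.62 and 444.7 RPM at 20 nt, is almost all the 20 nt form of oar-mir-26a shown above, at 72.3 and 440.2 RPM. That form of miR-26a was 6.09-fold higher in OVER while the full 22 nt form, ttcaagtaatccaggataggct, was 1.14-fold higher (1093 and 1250 RPM).

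The lowest ratios were those of miR-543, let-7f, miR-16b and let-7a. oar-mir-543, which is encoded in the DLK1-DIO3 domain as well, had 53.89 RPM in CON and 28.72 in OVER at 21 nt (1.88-fold lower, log2 -0.91 [-1.13 to -0.68]) and at least 2-fold less at 22 nt (28.2 and 12.5 RPM). oar-mir-16b, of the miR-15/16 family that restrains the cell cycle, had 835.5 and 479.9 RPM at 22 nt (1.74-fold lower). oar-let-7f had 637.1 and 349.5 RPM and oar-let-7a 677.9 and 413.1 RPM at 22 nt, and 98.5% and 93.1% of the reads under these names carry another name. With reads of a single name only, oar-let-7a turns to above CON (log2 0.59). The let-7f sequence printed above, which also carries the let-7a name, was 2.42-fold lower (294.1 and 121.6 RPM). oar-let-7c (363.7 and 258.4 RPM) and oar-let-7d (8.01 and 6.27 RPM) were within 2-fold. oar-mir-409 (13.9 and 13.4 RPM) and oar-mir-107 (93.5 and 91.8 RPM), the last of the 8, were level. The intervals of oar-let-7d, oar-mir-409 and oar-mir-107 include 0. These 8 were picked as the lowest ratios, and as shares of the reads of their length all were at least 2-fold lower.

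Among the most abundant miRNAs in CON, those of the miR-21, miR-148a and miR-99a names led. oar-mir-21 at 23 nt had 14537 RPM in CON and 26061 in OVER (1.79-fold higher). Its shorter forms were further apart, with 941.1 and 3112 RPM at 21 nt (3.31-fold higher). oar-mir-148a at 22 nt had 5011 and 18932 RPM (3.78-fold higher), the largest ratio among the 10 most abundant. oar-mir-99a, whose reads are mostly of its family member miR-100 by textbook sequence, had 4530 and 9540 RPM at 21 nt (2.11-fold higher). With TMM or DESeq2 factors, or as shares of the reads of their length, 9 of the 10 most abundant lie below CON and only oar-mir-148a stays above it (log2 0.67, 0.59 and 0.49). oar-mir-191 at 20 nt, oar-mir-26a, oar-mir-10a and oar-mir-10b at 22 nt were 1.46-fold, 1.19-fold, 1.48-fold and 1.53-fold higher in RPM. The 10 are not all separate observations. Of the oar-mir-10a and oar-mir-10b reads 93.1% and 98.0% carry another name, and of those of oar-mir-30a and oar-mir-30d 77.0% and 85.2%. The most abundant miRNA without an ovine name is miR-34c by textbook sequence, known from spermatocytes and spermatids: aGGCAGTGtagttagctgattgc. It had 3434 RPM in CON and 6393 in OVER (1.86-fold higher).

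The lists of miRNAs gave these counts at the members' peak lengths. The DLK1-DIO3 domain is an imprinted cluster active on the copy from the mother. Of 24 compared members of its list, 22 were above CON, 17 at least 2-fold, with a median log2 ratio of 1.40. Over all 70 miRNAs 61 were above CON, 42 (60%) at least 2-fold, with a median of 1.24. As shares of their length, 3 were at least 2-fold higher (oar-mir-127, oar-mir-380 and oar-mir-412) and 2 at least 2-fold lower (oar-mir-543 and oar-mir-409). The other members at least 2-fold higher in RPM were oar-mir-369 (48.98 and 214.7 RPM), oar-mir-411a (157.4 and 393.2 RPM), oar-mir-382 (50.28 and 115.7 RPM), oar-mir-410, oar-mir-136, oar-mir-381, oar-mir-411b, oar-mir-487b, oar-mir-154a, oar-mir-329a, oar-mir-376c, oar-mir-376d, oar-mir-376e and oar-mir-655. Some of these rest on shared reads. All oar-mir-329a reads carry another name, as do 94.8% of oar-mir-376d, 98.9% of oar-mir-376e and 34.8% of oar-mir-376c reads. Such reads count in full for each name, so the 17 may not all be separate observations. Of the 7 let-7 members compared, 2 were at least 2-fold higher (let-7b, as above, and oar-let-7g at 21 nt with 250.4 and 658.8 RPM), 4 were below CON, and the median was -0.35. As shares of their length all 7 were below CON, 4 of them at least 2-fold. The let-7 members are not separate observations. Of the let-7a, let-7c and let-7f reads 93.1%, 99.7% and 98.5% carry another name, and they count in full for each. The 4 miR-30 members were all above CON, 3 at least 2-fold (oar-mir-30a, oar-mir-30b and oar-mir-30c), with a median of 1.20. As shares of their length 2 were above and 2 below CON, only oar-mir-30b at least 2-fold, with a median of -0.01. Of the oar-mir-30a and oar-mir-30d reads 77.0% and 85.2% carry another name.

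The 6 compared miRNAs of insulin and lipid metabolism had a median log2 ratio of 0.38. Only oar-mir-29a, which acts on insulin signalling, was at least 2-fold higher (9.01 and 21.8 RPM at 22 nt), and oar-mir-103 as well as oar-mir-107 and oar-mir-143 were within 1.02-fold of CON. As shares of their length all 6 were below CON, oar-mir-107 and oar-mir-143 at least 2-fold. Of the oar-mir-103 and oar-mir-107 reads 79.7% and 99.2% carry another name, so these are not separate observations. Of the miR-17-92 list, oar-mir-19b was 2.12-fold higher and oar-mir-17 1.94-fold higher.

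The 3 epithelial miRNAs compared, of 6 in the list, were all at least 2-fold higher in OVER, as were 60% of all miRNAs compared: oar-mir-200a had 37.16 and 180.6 RPM at 21 nt (4.86-fold), oar-mir-200b 55.99 and 204.6 RPM (3.65-fold) and oar-mir-200c 50.08 and 194.4 RPM (3.88-fold), and their summed level, in which reads with several names count for each, was 464.0 RPM in CON and 1094 in OVER. Many oar-mir-200b and oar-mir-200c reads carry another name (48.1% of the latter). As shares of their length none was at least 2-fold apart. Their part in the results above was not tested. Of the white blood cell list 1 of 4 names was carried by any sequence, under the count minimum, of the red blood cell list 0 of 3, and of the germ cell list 0 of 4, although miR-34c was found by its sequence. Of the muscle list 1 of 5 was compared, oar-mir-143, at 5.51 and 5.43 RPM. Members of these lists were counted by ovine name, which 32.6% of the miRNA class reads in CON and 31.8% in OVER lack. A missing name thus does not show that a miRNA was absent.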

How the data were processed

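Small RNA of F1 ram sperm was compared between 3 CON and 3 OVER samples. Each deposited table lists distinct sequences with read counts, genome match and annotation, and these counts were used as deposited by the authors. The submitters' processing notes name edgeR, without a version. The aligner and the annotation tool are not named in the labels, and the genome build is not given in the sources used here. Within a group the 3 tables held the same sequences and counts (in OVER the annotation of 2 and 3 sequences differed), so the planned edgeR quasi-likelihood test was not possible, and the first table of each group was used. No column of another sample was used.

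Each sequence with a sense annotation was put into 1 of 14 classes. Where its names belonged to several classes, a fixed order decided, with miRNA first and nuclear tRNA next. Sequences with no annotation, or with only an antisense one, were outside the classes. Annotated reads, antisense ones included, were 57.6% of the CON library and 62.9% of the OVER library. Every miRNA or tRNA name on a sequence received its reads in full. Counts were divided by all reads of the library (9983895 and 8287937) and given per 1000000. A feature needed 100 reads in both libraries together, and 2-fold apart was counted. Against a count of 0, a floor of 3 reads (0.300 and 0.362 RPM) was used. Intervals are exact binomial (Clopper-Pearson) at 95%. Sequence fragments were counted by their first 18 bases (7SL and the inner Glu-TTC piece 15), and the small nuclear ones by their last 12.

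Named miRNAs are the 8 highest and 8 lowest ratios at the peak length (the length of highest mean RPM) and the 10 most abundant in CON; for tRNAs up to 6 of each. All rRNA species and the list members at least 2-fold apart are named. Of the most abundant and most different single sequences only some are named. One tRNA fragment, with the results that rest on its reads, is not reported here. Other fragments and lengths shown were chosen after their values were seen. The comparison and the lists were chosen with earlier results of these data known. Alternatives covered scaling (TMM, DESeq2 size factors, reads of the same length, genome-matching or annotated reads), the count minimum, the length window, sequences with a single name and the other tables. The ratio and its interval were checked on simulated counts of known fold with counting error only. Python 3.11.15 with pandas 2.3.3, numpy 2.4.6, scipy 1.17.1 and matplotlib 3.10.9, and R 4.3.3 with edgeR 4.0.16 and DESeq2 1.42.0, were used.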

Additional observations from a re-analysis of the deposited data

How the results depend on the processing

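Counts of features at least 2-fold higher and lower in OVER, 104 and 185 for classes, 155 and 3 for miRNA names and 349 and 210 for tRNA names, moved with the scaling. Per 1000000 reads of the same length they were 33 and 77, 22 and 45, and 118 and 134. Within miRNAs, TMM factors gave 63 and 38 and DESeq2 size factors 57 and 46. At 20 to 36 nt only, the classes had 35 higher and 120 lower, miRNA names 96 higher and tRNA names 118 higher. With no minimum beyond 1 read in each library the counts were 379 and 20 for miRNA names and 531 and 406 for tRNA names, and with a minimum of 1000 reads 53 and 0, and 91 and 80. With sequences of a single name only, 161 tRNA features were higher and 156 lower. The other tables of each group gave the same counts as the first.

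Among the classes and the miRNAs and tRNAs named by rank, values at least 2-fold apart at peak lengths that changed sides were, per 1000000 reads of the same length, 28S rRNA (log2 -0.058), 5S and 5.8S rRNA (-0.22), long non-coding RNA (-0.32), oar-let-7b (-0.03), oar-mir-30a (-0.23), oar-mir-99a (-0.37) and tRNA-His-GTG (0.53). With TMM factors oar-mir-30a (-0.056) and oar-mir-99a (-0.17) did so, and with DESeq2 size factors the same miRNAs (-0.14 and -0.25). Among ratios under 2-fold, the direction turned with TMM factors, DESeq2 size factors and per 1000000 reads of the same length for oar-mir-21 (-0.41, -0.49 and -0.16), oar-mir-10a, oar-mir-10b, oar-mir-191, oar-mir-26a and oar-mir-30d. Per 1000000 reads of the same length it also did for miRNAs as a class (-0.30), mitochondrial tRNA (0.64) and Y RNA (0.09), and, with a single name only, oar-let-7a (0.59) and oar-mir-10a (-0.48). Every scaling treats 1 library per group, and none replaces a replicate. No paired analysis was possible because the 3 tables of a group are the same, which leaves nothing to pair or to leave out.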

Other observations

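Reads that match the genome but carry no annotation were commonest in CON at the size of piRNAs, the PIWI-bound RNAs of the male germ line that mostly begin with U (T in the tables). They peaked at 29 to 30 nt in CON, with 34849 RPM at 29 nt and 36268 at 30 nt, against 14036 and 10280 RPM in OVER. At 29 nt 82.2% of these reads in CON and 86.7% in OVER began with T, and at 30 nt 68.7% and 80.7%. At 24 nt the shares were 35.1% and 47.5%. An A at the tenth base, the mark of piRNAs made by reciprocal cutting, was found in 26.8% and 26.0% at 29 nt and in 37.2% and 31.4% at 30 nt. At the other lengths from 24 to 32 nt it ran from 16.1% (CON, 25 nt) to 29.1% (OVER, 31 nt). No background share of A was computed, and whether any of these values exceeds it was not tested. The reads of 29 nt were 2.48-fold lower in OVER, less than all reads of that length (3.49-fold), and those of 30 nt were 3.53-fold lower (all reads 3.24-fold).

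The commonest mitochondrial tRNA sequence, a 27 nt piece of tyrosine tRNA, was level in RPM between the libraries, with 644.7 RPM in CON and 643.7 in OVER. As a share of the reads of 27 nt, all reads of that length under this tRNA name were higher in OVER (log2 0.84).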
